A study of Mus musculus with 31 samples.

Results

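The measurement described here is the ratio of transcript levels in the forebrain of 5-day-old mice 3 h after a single injection of magnesium sulfate (MgSO4) to the levels in control mice of the same age. It rests on the 4 arrays whose labels name MgSO4 and 3 h, out of 31 arrays in the study. On each array an RNA pool of MgSO4-treated mice was labeled with the dye Cy5 and a pool of control mice with Cy3, and the value used throughout is the log2 ratio of Cy5 to Cy3, so that 0 is equality and a positive value is a higher level after MgSO4. The study asked what MgSO4, given before birth to protect the brain of infants born too early, does by itself to brain transcription, and what it does before hypoxia-ischemia (HI), a permanent ligature of the right carotid followed by low oxygen. The other arrays held MgSO4 over control at 6 h (7 arrays), 12 h (4 arrays) and 24 h (4 arrays), and the HI comparisons.

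All mice were of the outbred NMRI strain and 5 days old. The dose was 600 mg/kg of MgSO4. The labels give a subcutaneous injection with phosphate-buffered saline as the control, whereas the methods of the study give an intraperitoneal route and controls without intervention. Each pool held RNA from 6 hemispheres of one side, cut in front of the colliculus and without the olfactory bulb, so each array compared 12 mice. Control pups came from the same litters and were collected at the same time. No mouse of these 4 arrays had a ligature. The pools, not the mice, are the replicates here, and p-values measure the spread between 4 pairs of pools. MgSO4 was in Cy5 on all 4 arrays, so a difference between the dyes and a difference between the treatments cannot be told apart within them. In whole tissue, fewer cells of a type and less RNA per cell cannot be told apart either.

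Magnesium ions sit in the pore of the NMDA receptor, a glutamate-gated channel, and keep it closed until the neuron is depolarized. They also compete with calcium at voltage-gated channels, and cross cell membranes with the help of proteins such as the channel Trpm7 and the Cnnm family. Neuronal activity and injury switch on immediate early genes such as Fos and Egr1 within minutes to hours. A single sample at 3 h shows their level at that time and cannot show a brief response that ended before it.

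The 4 arrays lay on 2 slides that held no other arrays of the study, replicates 1 and 2 on one and replicates 3 and 4 on the other, so slide and time point cannot be told apart. Between 55.1% and 69.7% of probes were well above background in Cy3 and between 54.4% and 68.2% in Cy5, with the lowest shares on replicate 3. No spot was saturated. All 13 neuron markers passed the detection filter. The pools differed in markers of other tissue and of sex, and the part of these differences in the results was not tested. Ttr, the transthyretin gene of the choroid plexus, gave log2 ratios of 0.38, 0.21, -0.23 and -1.62 on replicates 1 to 4, and the median of 9 choroid plexus markers went from 0.51 on replicate 1 to -0.996 on replicate 4. The Y-linked gene Ddx3y gave 0.11, -1.12, -0.38 and -0.09, and Xist, which is transcribed from the inactive X chromosome, gave -0.40, 0.87, 0.24 and 0.19. Replicate 2 thus had less Y-linked and more Xist signal in the MgSO4 pool than in the control pool, although the labels give 3 males and 3 females. The beta-globin gene Hbb-bs was 0.64 on replicate 1 and between -0.71 and -0.38 on the other 3.

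No gene passed the test at 3 h. Of 24462 probes tested with limma, 0 (0%) had an adjusted p below 0.05 with a fold of 1.5 or more, and the lowest adjusted p was 0.187. Without adjustment, 2446 probes had a p below 0.05, and the methods' t-test left 0 probes after adjustment and 190 at an unadjusted p below 0.05 with the same fold. At this looser limit limma gave 226 probes above control (0.924% of those tested) and 84 below (0.343%). Of 14805 genes, each read from its brightest probe, 622 had an unadjusted p below 0.05 with a mean above 0 (4.20%) and 711 with a mean below 0 (4.80%). The ratio was above 0 on all 4 arrays for 1069 genes (7.22%) and below 0 on all 4 for 1809 genes (12.2%). These shares are the background for every count of genes given below. The median size of a gene's mean log2 ratio was 0.0949, the median SD over the 4 arrays was 0.195, and the median half-width of the 95% interval was 0.240. This half-width comes from unadjusted intervals. A mean below it could mostly not be told from 0 with 4 arrays, and no mean above it passed the adjusted test either.

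The count of 0 depended on the processing. With normexp background correction and loess, a dye normalization by intensity within each array, 73 probes passed, all above control. With loess and no background subtraction 55 passed. Both alternatives start from the median signals, and the processed intensities of the main result had been dye-normalized too. When the spread was estimated over the 4 MgSO4 time points together, 90 probes passed, 89 of them above control. Of these 73, 55 and 90 probes, 42, 26 and 53 belonged to the group of bright probes with a common profile that is described below. That group was cut at a correlation with the profile above 0.9, and 49, 32 and 60 of these probes lay above 0.8.

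The 4 arrays did not resemble each other equally. Over the tested probes, replicate 1 correlated with replicates 2, 3 and 4 at r = -0.03, -0.05 and -0.07, whereas replicates 2 and 3 correlated at 0.23, 2 and 4 at 0.30, and 3 and 4 at 0.38. Replicate 1 correlated at 0.48, 0.52 and 0.47 with replicates 1, 2 and 6 of the 6 h group, and at -0.35 and -0.45 with replicates 3 and 4 of the 12 h group. The dyes are stated in the labels, so the direction of the ratios was kept. These correlations are across probes of 2 arrays and describe the arrays only. Without replicate 1 the count at unadjusted p and fold was 494 probes, against 310 with all 4 arrays. Between the slide means, 8195 of 14805 genes (55.4%) had the same sign.

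The genes with the largest mean ratios came mostly from faint probes. Among genes at an unadjusted p below 0.05, a fold of 1.5 or more and the same sign on all 4 arrays, 100 were above and 24 below control, and the 12 highest and 12 lowest of them are described here. Only 1 of the 12 highest (Foxd4) and 2 of the 12 lowest (Cdh15 and Tbx21) were well above background in both dyes on all 4 arrays. By signal, 111 of the 226 higher probes and 82 of the 84 lower probes at unadjusted p and fold had a mean log2 signal below 6. Of all 24462 probes tested, 5861 had such a signal. The median SD over arrays was 0.336 there, against 0.138 at signals of 12 and above.

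Foxd4, a forkhead transcription factor gene, was 1.14, 0.81, 0.81 and 1.07 on replicates 1 to 4. All 4 arrays lay above 0, with a mean of 0.96 ± 0.17 (SD, n = 4; adjusted p = 0.187, limma). Gpr35, a G protein-coupled receptor, had the highest mean, 1.49, from 2.30, 2.15, 0.35 and 1.17, so that the slide of replicates 1 and 2 was far above the other. Its probe was not well above background in the control channel on any array, so it passed the detection filter through the MgSO4 channel alone, where it is high, and its mean is no measured level difference. Against the lowest signal among detected probes, the MgSO4 channel was 2.44-fold higher for the mean of the arrays, not for each array (adjusted p = 0.332, limma). This is a nominal bound and no lower limit, since an undetected probe can lie above that signal. Jaml, an adhesion molecule of leukocytes, averaged 1.21, Fas, the death receptor, 1.14, and Cd27, a receptor of lymphocytes, 1.12. The other 7 were Trim12c (1.12), Crispld1 (1.03), Ccdc169 (0.96), Pmfbp1 (0.95), Trpm1 (0.91), Myod1 (0.86) and Stmnd1 (0.83). Fas rested on 1 array, with 2.84 on replicate 4 and between 0.29 and 1.09 on the other 3, and so did Trim12c, with 2.80 on replicate 4 and between 0.39 and 0.69 elsewhere. Myod1, the muscle lineage factor, was even across the arrays, from 0.69 to 1.17, but its mean log2 signal was 3.21.

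At the other end stood Fcgr1, the high-affinity receptor for immunoglobulin G (-1.24), and Gckr, the regulator of glucokinase (-1.19), both on faint probes. Gckr was -0.08, -0.33, -2.28 and -2.06 on replicates 1 to 4, so that the slide of replicates 1 and 2 showed little. Its probe was not well above background in the MgSO4 channel on any array and passed the filter through the control channel alone. The signals give a nominal bound, of the same kind as for Gpr35, of 1.745-fold lower for the mean of the arrays, not for each array (adjusted p = 0.458, limma). Psg22 (-0.75) and Fam110c (-0.73) passed through the control channel alone too and were bounded in the same way at 1.68-fold and 1.58-fold, with limma adjusted p of 0.247 and 0.187. Car3, a carbonic anhydrase, averaged -0.90, Ints2 -0.82, Plac8 -0.81, Ptgfr -0.77, Chrna5, a nicotinic acetylcholine receptor subunit, -0.72, and Usp37 -0.72. Cdh15, a cadherin of muscle and cerebellum, was measured in both dyes on all 4 arrays and gave -1.48, -0.87, -0.22 and -0.51, a mean of -0.77 ± 0.54 (SD, n = 4; adjusted p = 0.404, limma). Both arrays of the first slide lay below both arrays of the second. Tbx21, the T-box factor of helper T cells, gave -0.37, -1.54, -0.33 and -0.68.

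**Figure D1:**
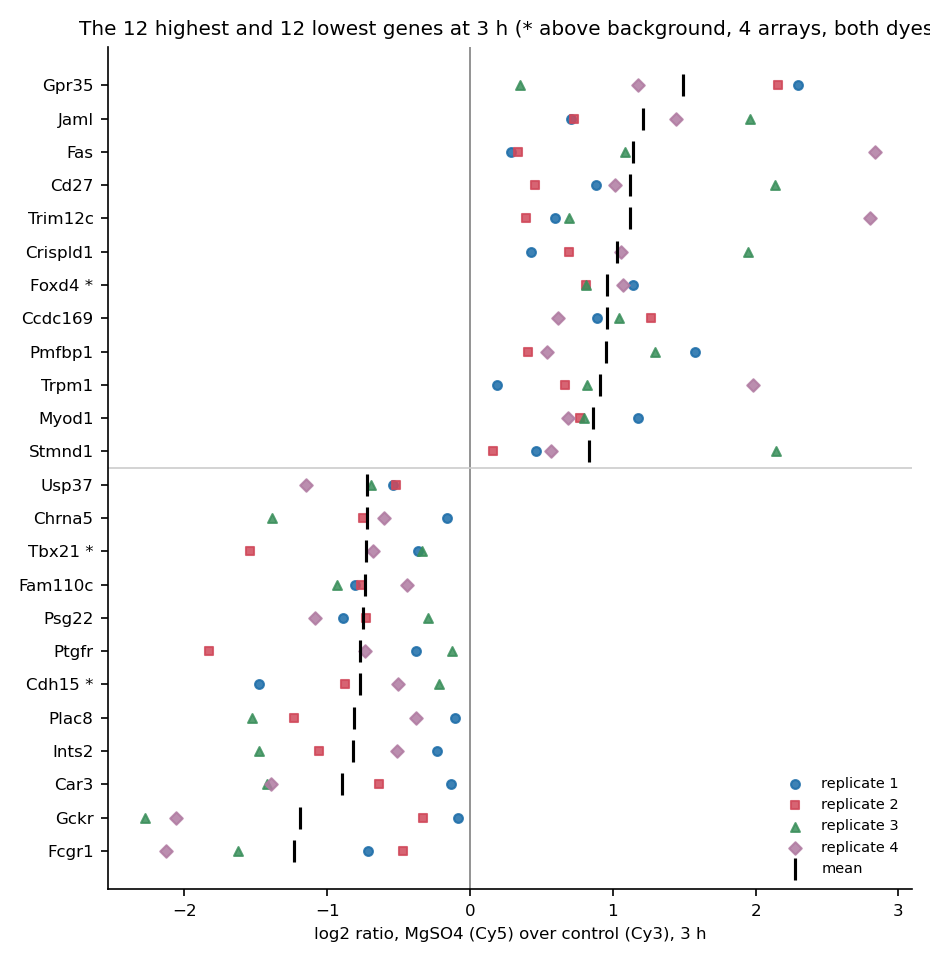
Log2 ratio of MgSO4 (Cy5) to control (Cy3) at 3 h on each of the 4 arrays (symbols) and the mean (vertical tick) for the 12 highest and the 12 lowest genes, an asterisk marking those well above background in both dyes on every array. The asterisked Foxd4 spans 0.81 to 1.14, whereas Fas and Trim12c each have 1 array near 2.8 and the other 3 at 1.09 or below.

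Of the 100 higher and 24 lower genes, 73 and 4 were well above background in both dyes on every array. The 4 lower ones were Cdh15, Tbx21, Lima1 and Adat2, the last 2 named after their values were seen. Lima1, an actin-binding protein, was -0.47, -0.52, -0.66 and -0.80, with every array below 0. Adat2, a tRNA deaminase subunit, was -0.84, -0.78, -0.77 and -0.03, so that 1 array showed nothing. On the side above control, and again named after their values were seen, Nhlh1, a helix-loop-helix factor of newborn neurons, was 0.78, 0.94, 0.47 and 0.98, and Psme3, an activator subunit of the proteasome, was 0.71, 0.96, 0.70 and 0.66. Psme3 had the mean 0.76 ± 0.13 (SD, n = 4), and its limma adjusted p was 0.187. Il15ra (0.76), Sema6d (0.75), Tmprss3 (0.75) and Kcna4 (0.74) had the same order of arrays at the top, with replicate 2 between 0.97 and 1.01 in each and the other 3 arrays between 0.56 and 0.76.

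Most of the higher genes were also high after HI without MgSO4. HI over control, at 3 h from the end of low oxygen, was measured on 3 arrays with control pools of their own, also with the treated pool in Cy5. The 73 higher genes had a median log2 ratio of 0.66 after MgSO4 and of 0.71 after HI, 70 of the 73 lay above 0 after HI, and 65 were at a 1.5-fold ratio or more. Of the 73, 42 were read by bright probes of a common profile, described below, whose median lay above 0 on 30 of 31 arrays. Of the other 31 genes, 28 lay above 0 after HI and 24 were at a 1.5-fold ratio or more. Over all 14373 genes tested on both sets, 6506 (45.3%) lay above 0 after HI and 368 were at a 1.5-fold ratio or more. Nhlh1 was 0.79 after MgSO4 and 0.81 after HI, a difference of -0.02 (95% interval -0.33 to 0.30). Psme3 was 0.76 and 0.80, a difference of -0.04 (95% interval -0.28 to 0.20). Foxd4 was 0.96 and 0.66, a difference of 0.30 (95% interval -0.15 to 0.75). The 4 lower genes ran from -0.77 to -0.61 after MgSO4 and from -0.25 to -0.11 after HI.

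At mean log2 signals of 12 and above, the upper end was made up largely of probes with a single pattern. At signals from 9 to 12, 28 of the 30 higher probes at unadjusted p and fold were outside the set described here. The paper gives a gene list for this time after MgSO4, chosen on these same arrays, so that its level is no independent evidence of a direction. Of the 60 genes of the list, 54 were tested. Its median was 0.66, with 43 of 54 at an unadjusted p below 0.05 and a mean above 0, none below, and 41 above 0 on all 4 arrays, against medians of -0.01 and the background shares of 4.20% and 7.22% over all genes. The median of the list on the 27 arrays that are not MgSO4 at 3 h was taken as a profile, and 76 probes followed it over those 27 arrays at r above 0.9. They included the brightest probe of 32 of the 54 list genes, and 58 of the 76 carried a gene name. A looser limit of r above 0.8 would have taken 174 probes, so the edge of the set depends on the limit. Apart from the list, which the study drew from the 3 h arrays, the 3 h ratios were not used to find them.

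All 76 probes lay above 0 on each of the 4 arrays at 3 h. Their medians on replicates 1 to 4 were 0.39, 0.96, 0.62 and 0.60, and their means ran from 0.24 to 0.74, with a median of 0.64. They were bright, with mean log2 signals between 11.1 and 15.1, yet 1511 other probes with signals from 12.65 to 14.23 had a median ratio of -0.03, and 98 of those lay above 0 on all 4 arrays. Of the 58 higher probes at unadjusted p and fold with a signal of 12 or above, 4 did not share the profile. The 2 slides gave medians of 0.68 and 0.61, and leaving out 1 array at a time moved the median between 0.54 and 0.73.

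As a set, the 76 probes had a median above 0 in every comparison of the study, lowest at 6 h after MgSO4. The median of the 76, averaged over arrays, was 0.64 ± 0.24 (SD, 4 arrays) at 3 h after MgSO4, 0.29 ± 0.24 (7 arrays) at 6 h, 0.63 ± 0.15 (4 arrays) at 12 h and 0.52 ± 0.18 (4 arrays) at 24 h. After HI without MgSO4 it was 0.68 ± 0.08 at 3 h and 0.79 ± 0.16 at 12 h (3 arrays each). On the arrays of MgSO4-treated HI mice it was 0.68 ± 0.14 and 0.76 ± 0.21 (3 arrays each). It lay above 0 on 30 of 31 arrays, from -0.02 to 0.999. By the labels Cy5 carried a treated or injured pool on all 31 arrays, so dye and treatment cannot be told apart across them either. The difference between MgSO4 and HI at 3 h had a median of -0.05 over the 76 probes, from -0.17 to 0.07, and no probe passed the test. The differences of 3 h from 6, 12 and 24 h had medians of 0.34, 0.01 and 0.13, again with no probe past the test.

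**Figure D2:**
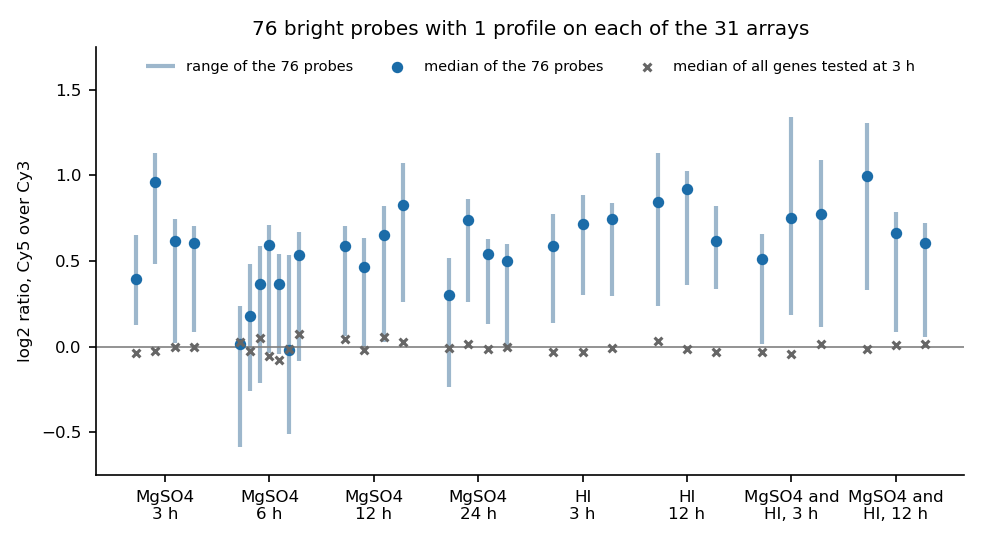
Log2 ratio of Cy5 to Cy3 on each of the 31 arrays, grouped by comparison, with the range (bar) and median (dot) of the 76 bright probes and the median of all genes tested (cross). The medians of the 76 probes lie above 0 on 30 arrays and reach 0.96 at 3 h after MgSO4, while the crosses lie near 0.

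The probes fell into a lower and an upper set. In the lower set 18 probes had 3 h means from 0.24 to 0.34, and in the upper set 58 had means from 0.58 to 0.74, with no probe between them. The lower set gave medians of 0.24, 0.59, 0.22 and 0.20 on replicates 1 to 4 and the upper set 0.44, 0.97, 0.64 and 0.62. Replicate 2 was the highest array in both sets, replicate 1 was second in the lower set and lowest in the upper set. After HI at 3 h the lower and upper sets were at 0.35 and 0.71, and at 6 h after MgSO4 at -0.09 and 0.34. All 32 list genes were in the upper set. Among its members, Slc1a4, a neutral amino acid transporter, was 0.57, 0.87, 0.68 and 0.68, and Hemgn, a nuclear protein of blood-forming cells, was 0.43, 0.98, 0.64 and 0.62, a spread of arrays hardly different from that of Epha5, an axon guidance receptor, at 0.53, 0.98, 0.67 and 0.67. Their differences from HI were -0.10 (95% interval -0.33 to 0.14), -0.04 (-0.35 to 0.27) and -0.06 (-0.34 to 0.23). These genes were named after their values were seen.

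Other probes of the same genes gave other values. For 25 genes with a probe in the set, the array also held 32 other tested probes. The probes in the set had a median of 0.64 for these genes, from 0.24 to 0.73, and the 32 others a median of 0.03, from -0.47 to 0.49, with 5 of the 32 at an unadjusted p below 0.05. Itsn1, an endocytic scaffold, read 0.32, 1.03, 0.58 and 0.61 on its probe in the set, a mean of 0.63, while its 5 other probes had means between -0.13 and 0.03. Arl6ip6 averaged 0.70 on the probe in the set and -0.03 and -0.08 on the others. Ubtf, a factor of ribosomal RNA transcription, averaged 0.65 against 0.02, Sp110, an interferon-induced nuclear protein, 0.64 against -0.04, and Epha5 0.71 against 0.13. The other probes were fainter in these 5 genes, and the part of the signal level in the difference was not tested.

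**Figure D3:**
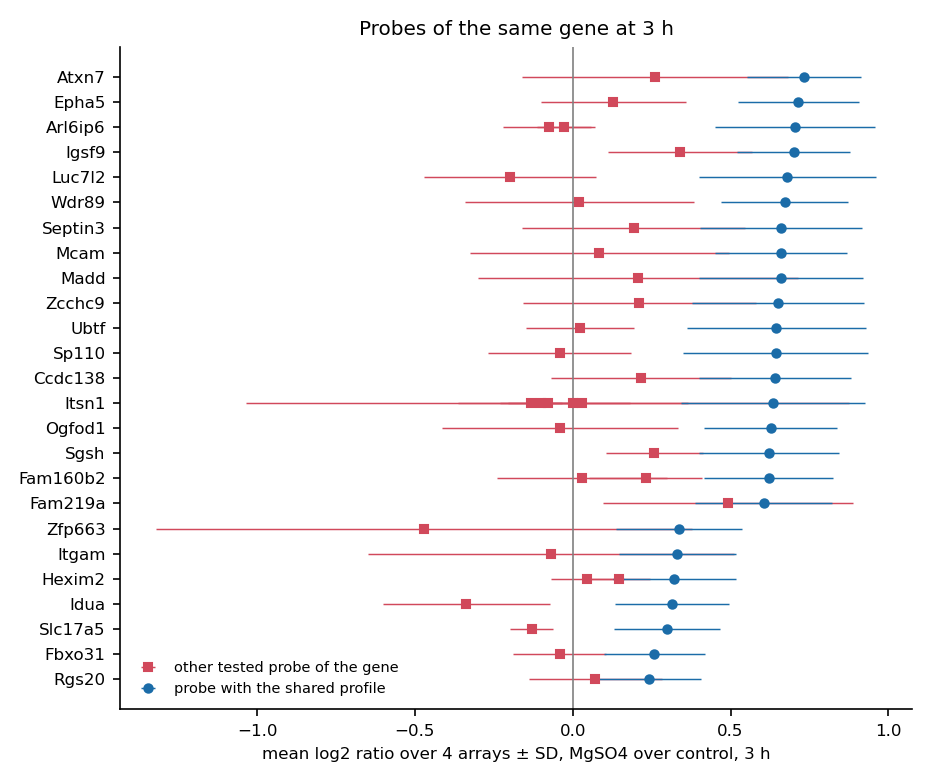
Mean log2 ratio over the 4 arrays at 3 h with its SD (horizontal bar) for the 25 genes that have a probe with the shared profile (circles) and at least 1 other tested probe (squares). The circles lie between 0.24 and 0.73, and the 32 squares between -0.47 and 0.49 around a median of 0.03.

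The 22 list genes whose brightest probe was outside the set had a median of 0.46, and 11 of them had an unadjusted p below 0.05. They held 8 genes with means from 0.72 to 0.76, Psme3, Il15ra, Sema6d, Tmprss3 and Kcna4 among them, and others near 0. Psme3, Il15ra, Sema6d, Tmprss3 and Kcna4 correlated with the profile at r = 0.66, 0.71, 0.69, 0.80 and 0.85, below the limit of 0.9. The brightest probe of Golga7b averaged -0.03, with -0.37 on replicate 1 and 0.02 to 0.17 on the rest, whereas another of its probes averaged 0.71. Dnajc19, a mitochondrial import chaperone, averaged 0.02 on its brightest probe and 0.70 on another. Both were named after their values were seen.

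Genes that handle magnesium differed little between the pools. Of 31 genes of magnesium transport, 26 were tested, with a median of 0.03 (all genes, -0.01), and 2 had an unadjusted p below 0.05, both above control, against a background of 4.20%. Nipal3, a member of the NIPA magnesium transporter family, was 0.07, 0.51, 0.53 and 0.54. Replicates 2 to 4 lay close together and replicate 1 near 0, and its mean of 0.41 ± 0.23 had a limma adjusted p of 0.392 (n = 4). Cnnm3, which acts in magnesium extrusion, was 0.33, 0.56, 0.18 and 0.14 (mean 0.30), Cnnm2 0.18 and the channel kinase Trpm7 0.08, the last named after its value was seen.

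The calcium and glutamate genes gave the same picture. Voltage-gated calcium channels (14 tested, median 0.02) had 1 gene at an unadjusted p below 0.05, the auxiliary subunit Cacna2d4 (0.40, at a log2 signal of 4.28). Calcium stores, pumps and sensors (44 tested, median 0.05) had 3, all above control. Calm2, a calmodulin gene, was 0.16, 0.44, 0.40 and 0.44 with a mean of 0.36, Itpr2, a calcium release channel, averaged 0.38, and Slc8a3, a sodium-calcium exchanger, 0.26 on its brightest probe but -0.01 over all its probes. Ionotropic glutamate receptors (16 tested, median 0.04) had 1, Gria4 (0.26). The NMDA receptor subunit Grin2b was -0.23, 0.41, 0.77 and 0.35, with replicate 1 on the other side of 0 (mean 0.32, adjusted p = 0.558, limma), and the obligatory subunit Grin1, named after its value was seen, averaged -0.04. The kainate receptor subunit Grik3 (0.42), which is in the list of the study, was -0.29, 0.60, 0.82 and 0.58. Gria2 averaged -0.14 on its brightest probe and 0.09 over all its probes. Among 7 metabotropic receptors Grm3 (0.21) was the 1 gene at an unadjusted p below 0.05.

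Synaptic genes were split between arrays. The median of 47 synaptic genes was 0.04, and by array -0.35, 0.10, 0.19 and 0.12, so that replicate 1 was low and the others slightly high. The ionotropic glutamate receptors did the same, with -0.33, 0.12, 0.26 and 0.13, and the neuron markers gave -0.32, 0.20, 0.10 and 0.16. The 4 synaptic genes with an unadjusted p below 0.05 above control were Pclo, a scaffold of the active zone (0.12, 0.39, 0.57 and 0.41, mean 0.37), Slc17a6, a vesicular glutamate transporter (0.36), Sypl (0.24) and Sv2a (0.39), and the 1 below was Slc17a7, the other main vesicular glutamate transporter (-0.17). Slc17a7 was even, between -0.19 and -0.15 on every array, and had a limma adjusted p of 0.497. Among 22 genes of the GABA system, Abat, the enzyme that degrades GABA, averaged 0.23, at an unadjusted p below 0.05.

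Genes of activity, stress and injury had medians near 0. Immediate early genes (36 tested) had a median of -0.04, with 2 genes at an unadjusted p below 0.05 above control, Ier2 (0.28, 0.01, 0.29 and 0.26, mean 0.21) and Fosb (0.30, 0.27, 0.03 and 0.20, mean 0.20), and none below. Glucocorticoid response genes (29 tested, median 0.06) had none in either direction. Zbtb16 had their highest mean, 0.62, from -0.32, 0.73, 1.59 and 0.46, and Sgk3 was at 0.18. Circadian clock genes (21 tested, median 0.08) had none either, the highest being Bhlhe41 at 0.60, with 1.52 on replicate 3. Heat shock chaperones (26 tested, median -0.02) had 2 below control, Ahsa1 (-0.22), an activator of Hsp90, and Hsf1 (-0.20), the heat shock transcription factor, each below 0 on all 4 arrays. Inflammation genes (25 of 40 tested, median -0.07) had Il4ra (0.26) above and Nos2 (-0.27) below, and oxidative stress genes (20 tested) had Trib3 (0.27) above.

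Hypoxia response genes (26 tested, median -0.00) had 1 above control and 2 below. Slc2a1, the glucose transporter of the blood-brain barrier and a hypoxia target, was 0.48, 0.71, 0.16 and 0.49 (mean 0.46, adjusted p = 0.344, limma), above 0 on every array. After HI it averaged 1.12, and the difference of -0.66 (95% interval -1.02 to -0.31) had a limma adjusted p of 0.116. Egln3, an oxygen-sensing hydroxylase, averaged -0.29 and Ndrg1 -0.22 (both at an unadjusted p below 0.05).

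Several genes of sterol synthesis and of cell division lay slightly below control. Among 28 cholesterol biosynthesis genes (median -0.02), 3 had an unadjusted p below 0.05, all below control, and 6 lay below 0 on all 4 arrays, against backgrounds of 4.80% and 12.2%. Dhcr7, the last enzyme of the pathway, was -0.21, -0.28, -0.35 and -0.25, a mean of -0.27 ± 0.06 (SD, n = 4; adjusted p = 0.404, limma). Hsd17b7 averaged -0.26, Msmo1 -0.25 and Idi1 -0.17, the last with a p above 0.05. Their spread over arrays was small, and after HI at 3 h Dhcr7 and Hsd17b7 lay on the other side, at 0.21 and 0.26. Among 28 proliferation genes (median -0.13) 4 lay below control at an unadjusted p below 0.05 and 1 above. They were the mitotic kinase Aurka (-0.30), the replication helicase subunit Mcm2 (-0.24), the replication clamp Pcna (-0.20) and Ube2c (-0.26), and thymidylate synthase Tyms (0.32) above, the last on a faint probe. The median of the 28 was 0.04 on replicate 1 and -0.18, -0.19 and -0.19 on the other 3. After HI the median was -0.12.

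Ribosomal protein genes, whose probes were the brightest of the lists, had many small and steady ratios in both directions. Of 77 tested, with a median of 0.02, 14 had an unadjusted p below 0.05 above control and 2 below, and 25 lay above 0 and 13 below 0 on all 4 arrays. Rps14 was 0.96, 0.46, 0.38 and 0.54 (mean 0.59), Rpl32 0.53, 0.35, 0.37 and 0.32 (mean 0.39), Rpl14 averaged 0.39 and Rpl35 0.37. Rps4x (-0.24) and Rpl3 (-0.20) were the 2 below. Mean ratios of ribosome subunits thus lay on both sides of 0. The median log2 signal of these probes was 16.0, and the median ratio of the group was 0.13 with normexp and loess and 0.14 with loess and no background subtraction, so its level moved with background correction and normalization together. Rps14 was also high after HI (0.54). Oxidative phosphorylation genes (75 tested, median -0.01) had 5 above, with Uqcrh at 0.27, and 2 below, with Cox5a at -0.20.

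Axon guidance genes (71 tested, median 0.04) had 8 above control at an unadjusted p below 0.05 and none below, against backgrounds of 4.20% and 4.80%. Among them Sema6d, a semaphorin, had 0.75, the Eph receptors Epha5 and Ephb3 0.71 and 0.69, Sema4c 0.69 and Dpysl5, a semaphorin signal mediator, 0.50. Epha5, Ephb3 and Sema4c were read by probes of the shared profile, and without these 3 the count was 5. Sema6d and Dpysl5 correlated with that profile at r = 0.69 and 0.87, below the limit of 0.9. Ephb3 was 0.44, 0.96, 0.70 and 0.68 after MgSO4 and averaged 0.75 after HI. Of 29 translation control genes, Eif4e, the cap-binding factor, was 0.33 and the kinase Rps6ka1 -0.21. Mknk1, a kinase of translation initiation factors, Fmr1, an RNA-binding regulator of translation, the deacetylase Sirt1 and Rictor, a subunit of an mTOR complex, were chosen as single genes of interest and had means of 0.27 ± 0.52, 0.03 ± 0.14, -0.04 ± 0.19 and 0.08 ± 0.27 (SD, n = 4). Mknk1 was 1.04 on replicate 4 and between -0.10 and 0.13 on the other 3, and each of the 4 genes crossed 0 between arrays.

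Cell type markers showed no group with more than 1 gene at an unadjusted p below 0.05. Neuron (13 tested), cortical projection neuron (12), striatum (12), hippocampus (10), astrocyte (12) and oligodendrocyte lineage (12) markers had none. Interneuron markers had Sp8 (-0.21) below, endothelial and pericyte markers the drug efflux pump Abcb1a (0.32) above, and blood markers the anion exchanger Slc4a1 (-0.33) below. Thalamus and hypothalamus markers had 1 each above control. Microglia markers had Itgam (0.33, from 0.30, 0.60, 0.25 and 0.18), whose probe shared the common profile, and none without it. The medians by array spread most for choroid plexus, sex-linked and meningeal genes, as described above for Ttr, Ddx3y and Xist. The choroid plexus channel gene Kcnj13 averaged -0.39, from 0.26, -0.76, -0.08 and -0.98, and the Y-linked Eif2s3y -0.14, from 0.32, -0.74, -0.11 and -0.01.

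**Figure D4:**
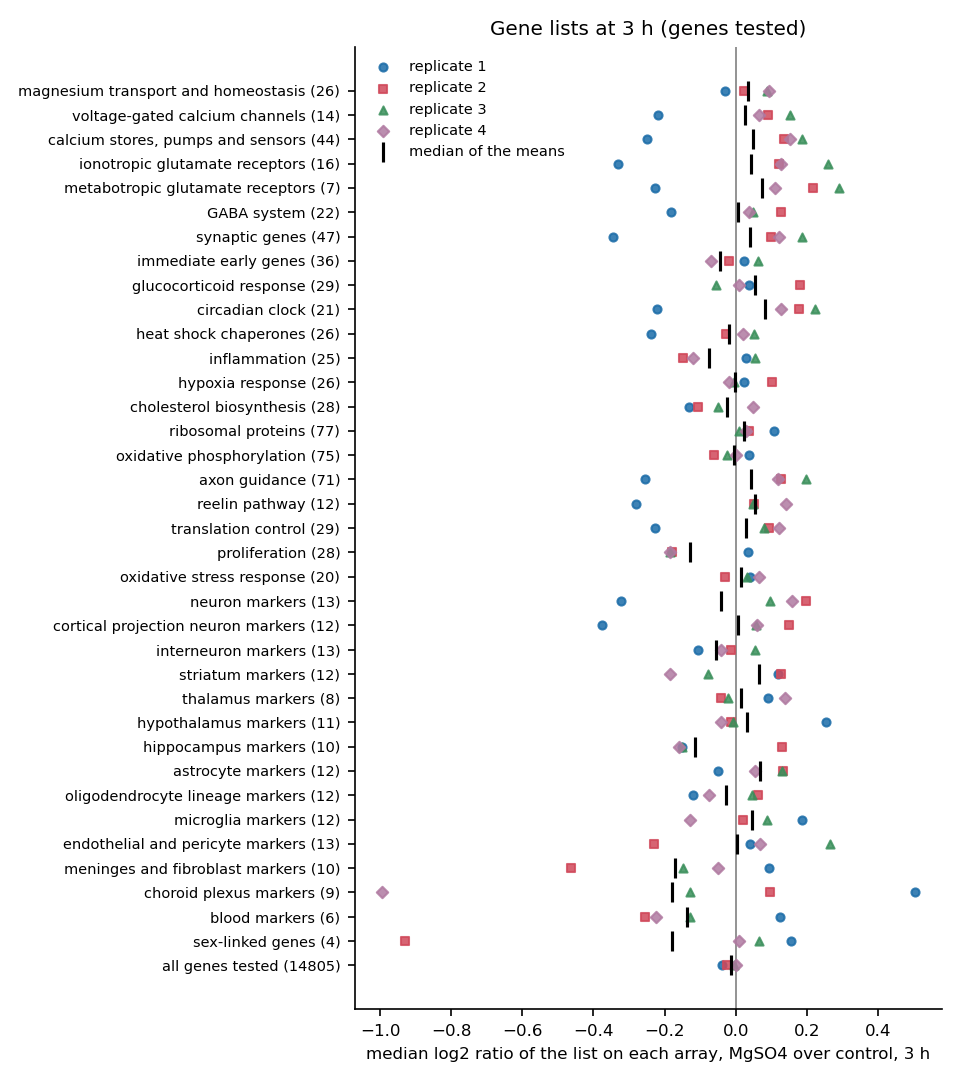
Median log2 ratio of MgSO4 to control at 3 h of each gene list on each of the 4 arrays (symbols) and the median of the gene means (tick), with the number of genes tested in parentheses. Synaptic genes and neuron markers lie below -0.3 on replicate 1 and above 0 on the other 3 arrays, and choroid plexus markers run from 0.51 to -0.996.

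Against the later times, no probe differed in the test of the difference. Between 3 h and 6 h, 22236 probes were tested and 0 (0%) passed, with 1072 at an unadjusted p below 0.05. Between 3 h and 12 h, 22573 were tested and 0 (0%) passed, with 714 at an unadjusted p below 0.05. Between 3 h and 24 h, 22584 were tested and 0 (0%) passed, with 224 at an unadjusted p below 0.05. These fits used limma on all 4 time points, and each time point had control pools collected at its own time.

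Against HI at its own 3 h point, the 4 MgSO4 arrays differed in genes of the early response and in others. The 3 h after MgSO4 ran from the injection and those after HI from the end of low oxygen, which followed anesthesia and the ligature. The part of this timing in the differences was not tested. Of 23400 probes tested, 128 (0.547%) passed, 114 lower and 14 higher after MgSO4 than after HI. Among 14373 genes, 79 (0.550%) were called lower and 10 (0.0696%) higher. Since the 2 sets were on different slides, slide and treatment cannot be told apart. The count was 28, 32 and 35 without HI replicates 1, 2 and 3, 69, 52 and 38 without MgSO4 replicates 2, 3 and 4, and 211 with slide as a random block. Of 36 immediate early genes tested, 21 were among the 79 called lower, with a median of -0.04 after MgSO4 and 1.46 after HI. Fos was -0.33, -0.15, 0.18 and -0.30 after MgSO4 and 5.57, 5.86 and 5.12 after HI. The groups were far apart, by -5.67 (95% interval -6.12 to -5.22; adjusted p = 4.48e-05, limma). Atf3, a stress-induced transcription factor, differed by -3.58 (adjusted p = 0.00115, limma), from -0.65 to 0.30 after MgSO4 and 3.49 to 3.69 after HI. Fosb differed by -3.43, Maff by -3.02 and Gem by -2.84, and Egr1, named after its values were seen, by -2.84. After MgSO4 the highest value of these 6 genes on any array was 0.67, for Maff on replicate 1, and after HI the lowest was 2.15, for Gem. These 6 were picked from the genes called, so their separation follows from the choice.

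**Figure D5:**
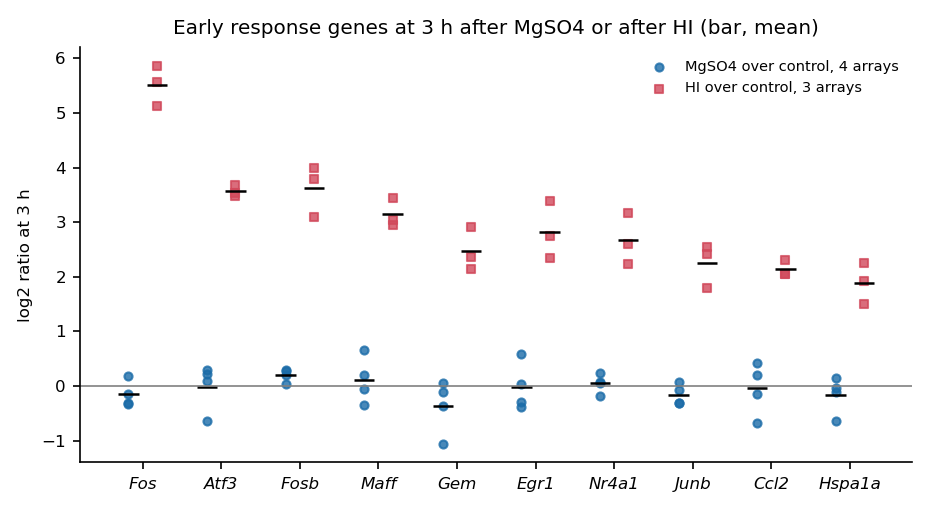
Log2 ratio at 3 h of 10 early response and stress genes on the 4 arrays of MgSO4 over control (circles) and the 3 arrays of HI over control (squares), with horizontal bars at the means. Fos is at most 0.18 after MgSO4 and at least 5.12 after HI. The 10 genes were chosen from those called in this contrast, so the separation of their groups follows from the choice.

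Other groups differed less. Inflammation genes had 5 of 25 called lower than after HI (median -0.07 and 0.41), among them the chemokine Ccl2, at 0.43, -0.67, 0.21 and -0.14 after MgSO4 and 2.31, 2.05 and 2.05 after HI. Glucocorticoid response and circadian clock genes had 3 each, of 29 and 20, with the clock repressor Nr1d1 at 0.08 and 1.40, and hypoxia response genes had 2 of 26. The chaperone Hspa1a was the 1 heat shock gene of 26 called, at -0.16 and 1.89. No gene of the magnesium (26), calcium store (44), glutamate receptor (16 ionotropic and 7 metabotropic), synaptic (47), cholesterol (28) or ribosomal protein (77) lists was called in either direction, nor was any of the 54 genes of the list of the study, whose medians were 0.66 and 0.71. Of the 10 genes higher after MgSO4 than after HI, Snora74a, a small nucleolar RNA gene, differed by 1.17, from 0.50 and -0.67, and Slitrk6, a neuronal membrane protein, by 0.998, from 0.13 and -0.87. The 14 probes called higher became 1, 0 and 0 without HI replicates 1, 2 and 3, 6, 3 and 2 without MgSO4 replicates 2, 3 and 4, 38 without MgSO4 replicate 1, 43 with slide as a random block and 0 with a replicate block. Those in this paragraph were named after their values were seen, and for Slitrk6 the difference lay mostly in the HI ratio.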

How the data were processed

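Total RNA pools were hybridized to 2-color Agilent whole mouse genome arrays. The deposited scanner files hold spot intensities, to which Feature Extraction 10.5.1.1 (as given in the submitters' processing notes) had applied background subtraction and dye normalization. The authors also deposited a series table of log10 ratios, which equaled the ratio column of the scanner files on 30 of 30 arrays compared. Ratios were computed here on the log2 scale from the deposited processed intensities, Cy5 over Cy3. Control spots and non-uniform or population outlier spots were left out, and replicate spots were averaged. Of 39429 probes, 27427 (69.6%) had 1 gene symbol, 20832 symbols in all, and 4 listed genes had no match. Symbols come from the RefSeq transcript accession of each probe, matched to a reference of gene names, and can be old. A probe was tested where at least 1 of the dyes was well above background on 3 or more of the 4 arrays. Levels of different probes are not comparable as amounts, and a signal is the mean log2 processed signal of both channels.

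The mean ratio was tested against 0 with limma 3.58.1 in R 4.3.3 (lmFit, eBayes, Benjamini-Hochberg over all tested probes), with a call at an adjusted p below 0.05 and a fold of 1.5 or more. Contrasts with 6, 12 and 24 h were fitted over the 4 time points, and the contrast with HI over the 7 arrays of both groups. Where a gene had several tested probes, the brightest stands for it. A gene not well above background in 1 channel on every array has only a nominal bound. It is the mean of the other channel against the lowest signal among detected probes or the probe's own signal, whichever is higher. Named genes were any called, the 12 highest and 12 lowest among those at unadjusted p below 0.05, fold 1.5 or more and 1 sign on all arrays (without Rik and predicted genes), in each of the 37 gene lists up to 4 with the lowest p, 4 preset genes, the 5 largest called differences of a contrast, and up to 4 markers of a cell type list. The genes and lists were chosen with earlier results of these data known. The common profile and the alternative without its probes were added after the data had been seen. Alternatives varied background correction, probe filters, the fit, slides, array weights and the arrays left out. The scripts were tested on simulated data. A result of 1 gene is not reported here. Array number limits precision: 4 arrays, with scanner signals and no read depth.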

Additional observations from a re-analysis of the deposited data

Results flagged for a closer look

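Of the 158 values compared over the 4 arrays, 19 had 1 array far from the other 3, by a gap that took more of the range than Dixon's 95% limit. Chance gives such a gap in about 1 of 20 groups of 4. Among genes, the gap as a share of the range was 0.937 for Nipal3 and 0.849 for Calm2, both with replicate 1 low, 0.844 for Abat (replicate 1 low), 0.877 for Trim12c (replicate 4 high), 0.910 for Adat2 and 0.877 for Ndrg1 (replicate 4 near 0), 0.832 for Psme3 and 0.905 for Tmprss3 (replicate 2 high), 0.895 for Ier2 (replicate 2 near 0), 0.838 for Sgk3 (replicate 1 high), and 0.908 for Pcna and 0.851 for Cox5a (replicate 3 low). Among list medians it was 0.883 for calcium stores, 0.836 for synaptic genes, 0.873 for translation control and 0.973 for proliferation, 0.886 for hypothalamus markers, each with replicate 1 apart, and 0.975 for hippocampus markers and 0.864 for sex-linked genes, each with replicate 2 apart.

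The ratios after MgSO4 and after HI at 3 h differed, in limma's test of the difference, for 12 of the 121 genes named. Over all genes, 89 of 14373 tested were called. Many of the 12 were named because they were called in this contrast, so their count follows from the naming. MgSO4 minus HI was -5.67 for Fos, -3.58 for Atf3, -3.43 for Fosb, -3.02 for Maff, -2.84 for Gem, -2.84 for Egr1, -2.18 for Ccl2, -2.06 for Ier2, -2.05 for Hspa1a and -1.32 for Nr1d1. It was 1.17 for Snora74a and 0.998 for Slitrk6.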

How the results depend on the processing

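The count of 0 called probes held in the series table, under every probe filter, with flagged spots kept, with slide as a random block, with array weights, with the methods' t-test and without each array in turn (0 to 0). It became 73 with normexp and loess, 55 with loess and no background subtraction and 90 in the fit over 4 time points, and the cause was not tested. The 310 probes at unadjusted p and fold became 93 with normexp and loess, 97 with loess and no background subtraction, 1217 over all non-control probes, 133 with both channels detected on all 4 arrays, 181 with 1 symbol, 523 with array weights and 190 with the methods' t-test. The filters change how many probes are tested. Leaving out 1 array gave 327 to 494, and leaving out the 76 probes of the common profile, chosen after seeing the data, gave 254. The contrasts with 6, 12 and 24 h stayed at 0 in each alternative. The contrast with HI gave 128 probes, 211 with slide as a random block and 28 to 167 without 1 array, which is fewer arrays. It gave 28, 32 and 35 without replicates 1, 2 and 3 of HI, and 69, 52 and 38 without replicates 2, 3 and 4 of MgSO4.

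With a replicate block it gave 23, and the contrasts between times stayed at 0. Same-numbered arrays did not deviate together in every pair (r from -0.20 to 0.49), so the numbers were not read as pairs.

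Of 875 values of named genes under an alternative, 828 kept their direction and side of the threshold, 25 (14 genes, with Psme3, Rps14 and Epha5 among them) passed the test with normexp and loess or with loess and no background subtraction, and 22 changed sign. Over all probes of the gene, Golga7b was 0.34, Slc8a3 -0.0091, Gria2 0.092 and Grin1 0.11, and Atf3 was 0.013 with loess and no background subtraction. Without 1 array, means ran from -0.10 to 0.080 for Golga7b, -0.088 to 0.081 for Dnajc19, -0.12 to 0.096 for Grin1, -0.11 to 0.20 for Atf3, -0.062 to 0.27 for Maff, -0.21 to 0.11 for Egr1, -0.55 to 0.12 for Ttr, -0.29 to 0.066 for Eif2s3y, -0.0080 to 0.088 for Fmr1, -0.098 to 0.017 for Sirt1, -0.027 to 0.19 for Rictor, -0.20 to 0.17 for Ccl2, -0.0025 to 0.15 for Nr1d1 and -0.26 to 0.0039 for Hspa1a. Of 299 list medians, 294 moved by less than the spread between arrays. Faint probes limit the precision: below a log2 signal of 6 the median SD over arrays was 0.336.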
